A study of Mus musculus with 15 samples.

Results

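Chemokines, interleukins and their receptors were followed in the trigeminal ganglion (TG) of mice with an injured cornea, using the deposited gene counts. The genes were chosen by name: protein-coding symbols starting with Ccl, Ccr, Cxcl, Cxcr, Ackr or Il and a digit, together with Cx3cl1, Tnf, Tnfrsf1a, Tnfrsf1b, Lif, Lifr, Osm, Osmr, Csf1 and Csf2rb. This gave 157 of the 55573 genes in the table, and the 60 with a mean of 10 or more raw counts over the 15 samples are described here. The last genes inside that limit were Ccl19 on chromosome 4 and Ccr3, both at a mean of 10.0 counts, and the first outside it was Il21r at 9.60. Of the 60 genes, 59 passed the filter on low counts and were tested, and Ccr3 was not. Another 60 genes of the same names had a mean of 1 to 10 counts and 37 were below 1, of which 21 had no count in any sample.

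All mice were male CD1, 10 weeks old, with the epithelium and anterior stroma removed inside a 2 mm circle of the right cornea. The vehicle group (5 samples) received vehicle, the RvD6 group (5 samples) the standard of resolvin D6, a lipid mediator made from docosahexaenoic acid, and the RvD6si group (5 samples) its stereoisomer. The lipids were applied to the eye 3 times per day for 12 days, and the right TG was then taken. All 3 groups therefore carried the injury, no uninjured ganglion was analysed here, and the lipid concentration is not given in the sources used here. The TG holds the cell bodies of the sensory neurons that supply the cornea, and the question put to the ganglia was whether treatment of the eye is followed by a change in their gene expression.

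Chemokines are small secreted proteins that steer leukocytes by binding receptors coupled to G proteins, and atypical receptors such as Ackr1 bind them without steering cells. Interleukins act through receptor chains that are shared within families: gp130 (Il6st) pairs with the receptors for interleukin-6, interleukin-11, leukemia inhibitory factor and oncostatin M and signals through JAK kinases and STAT factors, while the interleukin-1 and interleukin-17 receptors signal toward NF-kappaB. In sensory ganglia these molecules are known from resident macrophages and satellite glia after nerve injury, from leukocytes that enter the tissue, and from neurons that respond to them.

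The samples held 4125962 to 9903396 counts. The tissue label was borne out by its markers, since all 12 sensory neuron genes looked at (among them Tubb3, Scn10a and Trpv1) were counted, with summed normalized counts of 51569.9 to 113763 per sample. Normalized counts are raw counts divided by the sample's size factor, and they compare a gene between samples but not one gene with another. Replicate 15 of the RvD6si group stood apart from the other 4: its sum of 12 neutrophil and granulocyte precursor genes was 16547 against 494 to 1050.3, and its sum of 9 erythroid genes was 86557 against 6784 to 18986. The same neutrophil sum ran from 1024.5 to 5172 in the vehicle group and from 6117 to 19788 in the RvD6 group. Results that rest on this replicate are therefore given with and without it, a choice made after the data were seen. Whether its label or its dissection differs from the others cannot be told from these files, so RvD6si values that include it carry that doubt.

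Levels were compared between genes as TPM, which corrects counts for gene length and for the depth of the sample. The mean TPM over the 15 samples ran from 0.509 for Il17rd, a member of the interleukin-17 receptor family, to 65.3 ± 23.7 (SD, n = 15) for Ackr1, the atypical receptor of venules and erythroid cells. The gene of Ackr1 overlaps Cadm3, a cell adhesion gene, on the same strand. Lifr, the receptor for leukemia inhibitory factor, followed at 60.1 ± 25.5 TPM, and its partner Il6st stood at 30.4 ± 7.28. The order of Ackr1 and Lifr differed by group, the former higher in vehicle (mean 60.7 and 41.2 TPM) and RvD6 (68.8 and 56.6) and lower in RvD6si (66.5 and 82.5). Cxcl12, the chemokine that holds blood precursors in bone marrow and guides neurons and vessels, and Il34, a ligand of the macrophage receptor Csf1r, were the leading ligands at 36.9 ± 10.8 and 35.2 ± 11.4 TPM. Il34 was above Cxcl12 in the vehicle group (mean 33.9 and 27.8 TPM) and the RvD6si group (40.8 and 37.1), and Cxcl12 was above Il34 in the RvD6 group (45.7 and 30.8). The SDs of Ackr1 and Lifr overlap, as do those of Cxcl12, Il34, Il6st and Il10rb (29.9 ± 6.29), a chain of the interleukin-10 receptor.

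**Figure D1:**
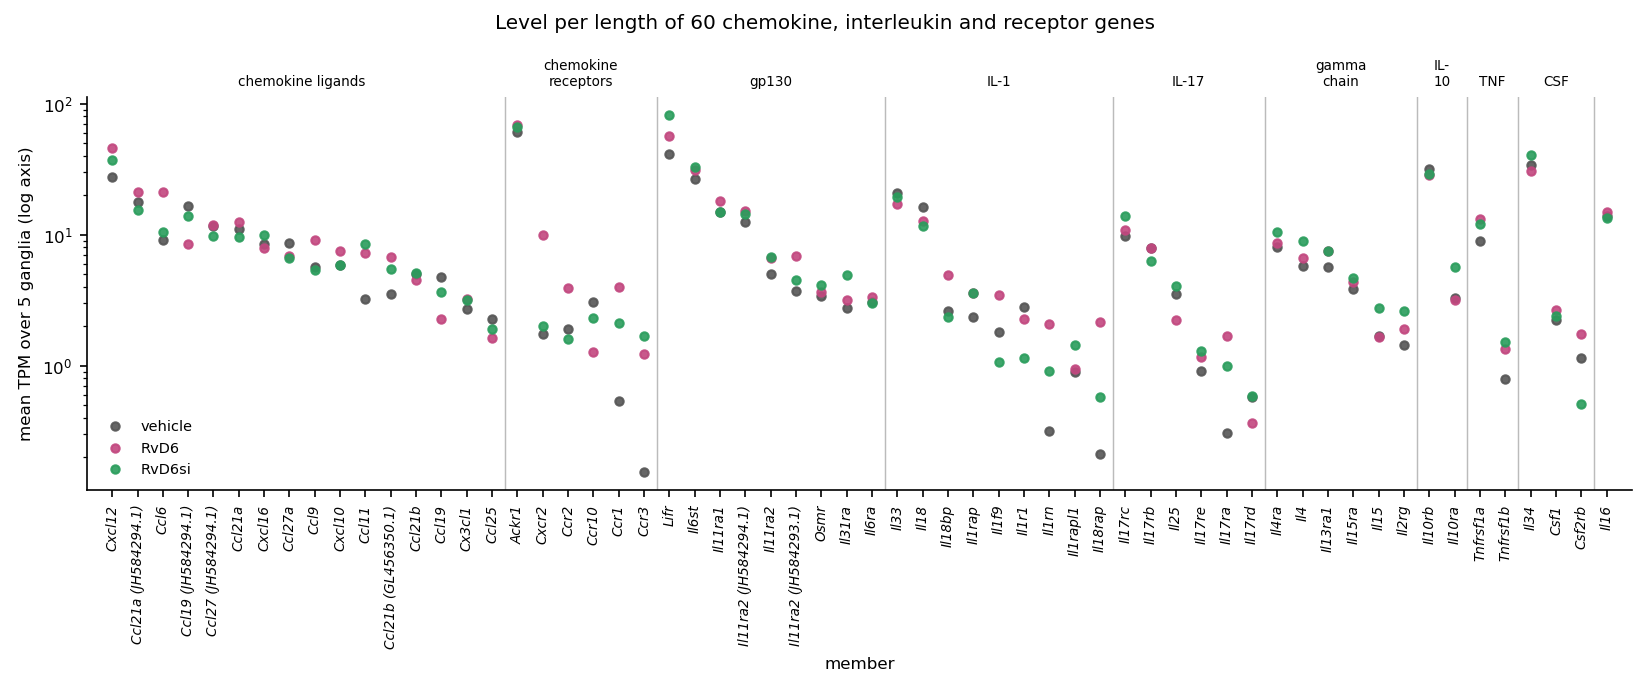
Mean TPM of each of the 60 genes (log axis) in the vehicle, RvD6 and RvD6si groups, 5 samples each, ordered by role and then by level. Ackr1 and Lifr stand highest over the 15 samples, and the group means of low genes such as Il18rap and Il17ra lie far apart. Those of Ccr3, which was not tested, rest on few samples, as most are at or near 0.

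Many of the best known ligands of nerve injury were at or below the limit of description. The mean raw count over 15 samples was 6.07 for Ccl2, the ligand of Ccr2, 6.27 for Il1b, 1.53 for Lif, 2.20 for Osm, 1.20 for Tnf and 0.27 for Il6. Il6 had a count in 2 of the 15 samples. The receptors of Cxcl12 were low as well, with mean raw counts of 3.47 for Cxcr4 and 7.20 for Ackr3, neither of which passed the filter. The receptor chains Lifr and Il6st, which bind leukemia inhibitory factor, were counted in every sample, with Lifr at 1029 to 3730.2 and Il6st at 657 to 1351 normalized counts. Differences in the ligands named here were not detectable at this depth.

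Among the 60 genes are 11 rows of Ccl19, Ccl21, Ccl27 and Il11ra2, which are repeated on chromosome 4 and on unplaced scaffolds of the GRCm38 genome. Reads marked as aligning to several places were not counted. Whether every such read was marked by the aligner was not checked, so these rows may also hold reads that fit several copies equally. The chromosome 4 copies of Ccl21, a chemokine that draws T cells and dendritic cells, show how alike they are. The coding sequences of Ccl21a (chromosome 4, 42772860 to 42773993, minus strand) and Ccl21b (chromosome 4, 42255693 to 42256825, plus strand) differ at 2 of 402 bases, T84A and C194T, written as the Ccl21a base, the position counted from 1 at the first coding base, and the Ccl21b base. The longest stretch without a difference is 208 bases. The stretches around both sites, from GENCODE M21 transcripts and written 5′ to 3′, carry the differing base in capitals.
Ccl21a, coding bases 64 to 104: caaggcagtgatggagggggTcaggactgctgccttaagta
Ccl21b, coding bases 64 to 104: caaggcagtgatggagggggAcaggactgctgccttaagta
Ccl21a, coding bases 174 to 214: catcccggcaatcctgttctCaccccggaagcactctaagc
Ccl21b, coding bases 174 to 214: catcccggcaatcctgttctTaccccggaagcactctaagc
The levels of single copies are therefore uncertain, and summing the copies of each family left the numbers of genes called and of genes at an unadjusted p below 0.05 as given below. The other counts were not recomputed with summed copies. Ccl21a had 16.4 to 46.2 normalized counts in the vehicle group, 21.1 to 55.9 in the RvD6 group and 14.7 to 28.8 in the RvD6si group, and the groups overlapped.

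Against vehicle, RvD6 ganglia had higher levels of several leukocyte receptors and of Cxcl12, but no gene of the set passed the adjusted threshold. With the edgeR quasi-likelihood test, 0 of 59 genes had an adjusted p below 0.05, as did 0% of all 16567 genes tested. At an unadjusted p below 0.05 there were 7 genes, all higher in RvD6 (Cxcl12, Il17ra, Ccr2, Ccr1, Cxcr2, Il18rap and Lifr). They were 11.9% of the set, against 13.6% of all genes in both directions and 7.63% higher. None was lower at that level, against 5.99% of all genes. DESeq2 called Cxcl12 and Il17ra, 3.39% of the set, where it called 2.06% of all genes. The fold change was above 0 for 43 of 59 genes, against 52.2% of all genes, with a median log2 fold change of 0.235 in the set and 0.024 over all genes.

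Cxcl12 (chromosome 6, 117168535 to 117181367) had normalized counts of 585, 732, 731, 704 and 757 in the vehicle samples and 1262, 1091, 1047, 1107 and 1342 in the RvD6 samples. Every RvD6 sample lay above every vehicle sample, which held for 4 genes of the set (Cxcl12, Cxcr2, Il17ra and Ccl6) and for 3.72% of all genes in either direction, 2.25% with RvD6 higher. The means were 702 ± 67.9 and 1169.6 ± 126 (SD, n = 5), the log2 fold change was 0.72 (SE 0.19) and the adjusted p of edgeR was 0.137. The adjusted p ranged from 0.0165 with DESeq2 to 0.278 over the alternatives, and it was 0.0365 in an edgeR fit of these 2 groups alone.

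Cxcr2, the receptor through which neutrophils follow the chemokines Cxcl1 and Cxcl2 (chromosome 1, 74153989 to 74161246), had 12.3, 9.79, 9.63, 25.6 and 25.5 normalized counts in the vehicle samples and 109, 79.3, 42.0, 48.3 and 195 in the RvD6 samples. The log2 fold change was 2.50 (SE 0.88) with an adjusted p of 0.226. by edgeR The groups did not overlap. Without replicate 15 of the RvD6si group, which is not part of this comparison but enters the shared estimate of the spread, edgeR called Cxcr2 (adjusted p = 0.0405) and Cxcl12 (adjusted p = 0.0228) higher in RvD6, 2 genes of the set where 0.299% of all genes were called. The same 7 genes were at an unadjusted p below 0.05 in that fit, against 13.4% of all genes. The adjusted p of Cxcr2 ranged up to 0.444 over the alternatives.

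The monocyte receptors showed the same order with some overlap. Ccr2, by which inflammatory monocytes leave the marrow, had 43.3, 55.2, 39.3, 41.3 and 19.7 normalized counts in the vehicle samples and 49.2, 114, 75.7, 91.7 and 83.6 in the RvD6 samples. Its log2 fold change was 1.04 (SE 0.35, adjusted p = 0.212 by edgeR), and 1 vehicle sample lay above the lowest RvD6 sample. Ccr1, a receptor of monocytes and neutrophils, had 12.3, 0, 6.42, 4.92 and 0 normalized counts in the vehicle samples and 11.7, 25.2, 53.2, 38.4 and 49.3 in the RvD6 samples. Its log2 fold change was 2.85 (SE 0.97, adjusted p = 0.219 by edgeR), with 1 vehicle sample again inside the RvD6 range. Ccr10, a receptor of skin-homing T cells whose gene overlaps Cntnap1, was the single one of 5 tested chemokine receptors with a fold change below 0 (-1.24, SE 0.98).

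Among the interleukin receptors, Il17ra and Il18rap were the 2 genes at an unadjusted p below 0.05 beside Lifr. Il17ra, the chain shared by the interleukin-17 receptors, had 7.21, 18.7, 8.83, 4.92 and 0.822 normalized counts in the vehicle samples and 37.5, 41.5, 28.02, 28.5 and 92.6 in the RvD6 samples. The groups did not overlap, with a log2 fold change of 2.47 (SE 0.72) and an adjusted p of 0.177 by edgeR and 0.0310 by DESeq2. Over the alternatives the adjusted p of Il17ra ranged from 0.0310 to 0.347. Il18rap, an accessory chain of the interleukin-18 receptor, had 0, 0, 6.42, 0 and 16.4 normalized counts in the vehicle samples and 2.34, 91.9, 22.4, 42.1 and 62.4 in the RvD6 samples. Its log2 fold change of 3.21 (SE 1.24, adjusted p = 0.276 by edgeR) rests on vehicle values near 0, and the lowest RvD6 sample lay within the vehicle range.

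**Figure D2:**
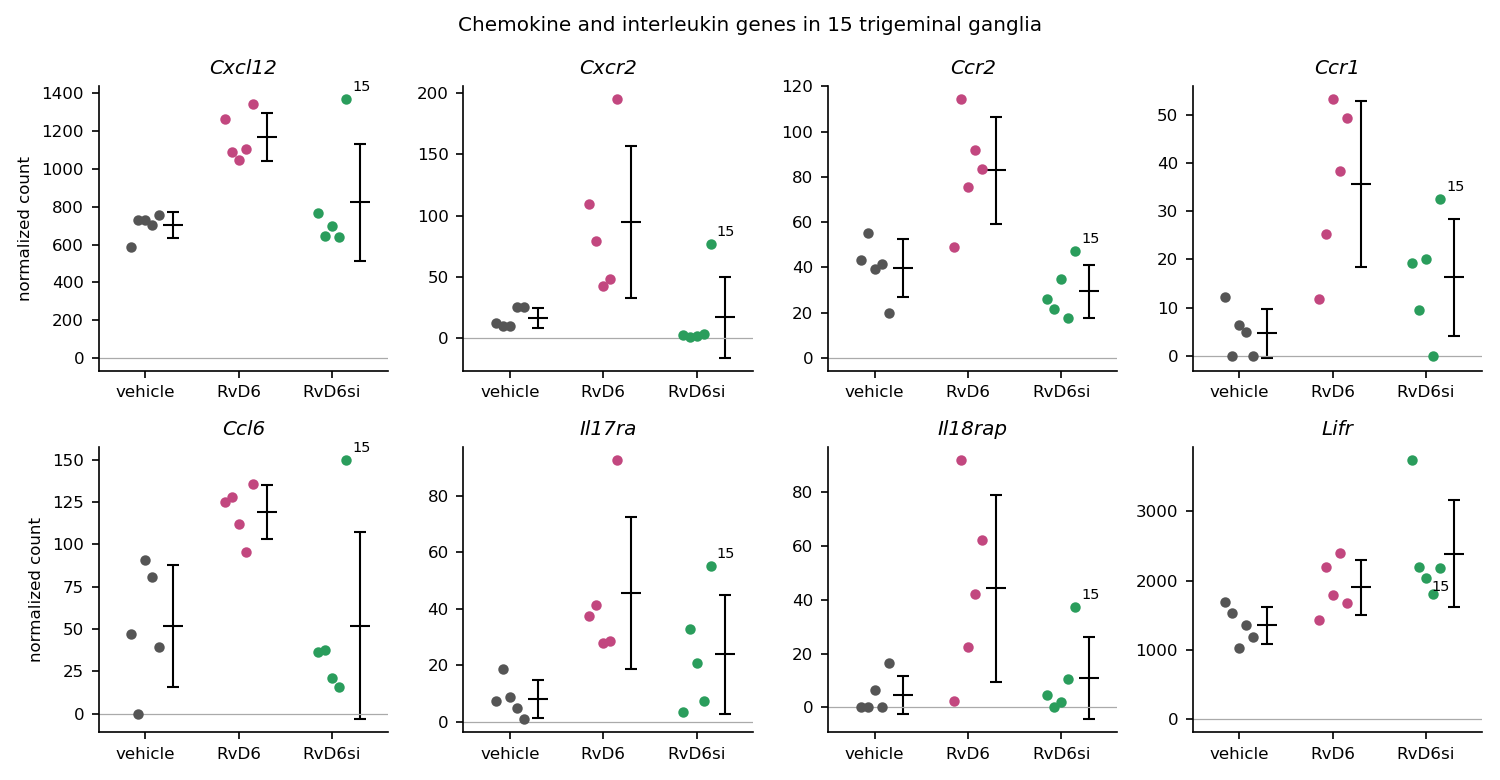
Normalized counts of 8 genes in each sample (linear axes), 5 samples per group; the bar beside each group is the mean ± SD, and 15 marks replicate 15 of the RvD6si group. Cxcl12, Cxcr2, Ccl6 and Il17ra do not overlap between vehicle and RvD6, and replicate 15 lies within or above the RvD6 samples for every gene but Ccr2.

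The other ligands and receptors moved less or less evenly with RvD6. Ccl6, a chemokine of myeloid cells, had 46.9, 0, 90.7, 80.7 and 39.5 normalized counts in the vehicle samples and 125, 128, 112, 95.4 and 136 in the RvD6 samples. The groups did not overlap, yet with 1 vehicle sample at 0 the log2 fold change of 1.20 had an SE of 0.69 and an adjusted p of 0.463 by edgeR. Among the 16 chemokine ligand rows, which count the copies of Ccl19, Ccl21 and Ccl27 separately, 10 had a fold change above 0. Over all genes 52.2% were above 0. The median of these rows was 0.21 and the range ran from -1.02 for Ccl19 to 1.20 for Ccl6. All 9 rows of the gp130 family, 3 of them copies of Il11ra2, were above 0, from 0.12 to 0.88. Lifr was the single one at an unadjusted p below 0.05 (log2 fold change 0.47, SE 0.20, adjusted p = 0.307 by edgeR). Tnfrsf1a, the main receptor of tumor necrosis factor, had a mean of 71.8 ± 19.3 in vehicle and 106 ± 26.5 in RvD6 (log2 fold change 0.55, SE 0.27, adjusted p = 0.390 by edgeR). Il33, an alarmin of the interleukin-1 family, and Il18 had fold changes of -0.23 (SE 0.24) and -0.34 (SE 0.46).

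Marker genes of other cells are given beside these values. The list with the highest median was skeletal muscle, with 8 of 8 genes above 0 and at an unadjusted p below 0.05, a median log2 fold change of 4.095 and sums of 160.5 to 1226 in vehicle and 920.2 to 21543 in RvD6. All 12 neutrophil and granulocyte precursor genes had a fold change above 0 in RvD6 against vehicle, all 12 at an unadjusted p below 0.05 and none at an adjusted one by edgeR, with a median log2 fold change of 2.58. None of the 12 was at 0 in all samples. Over all genes, 7.63% were higher and 5.99% lower in RvD6 at an unadjusted p below 0.05. The lowest RvD6 sum lay above the highest vehicle sum, as given above, and 9 of 9 erythroid genes tested were above 0 with a median of 1.55. Of 10 macrophage genes, 7 were above 0 and 3 of these at an unadjusted p below 0.05, with a median of 0.30 and sums that overlapped, at 699 to 999 in vehicle and 667 to 1257 in RvD6. The sums of 8 endothelial genes overlapped as well, at 960 to 1483 and 981 to 1368. All 6 fibroblast genes were above 0, 3 of them at an unadjusted p below 0.05, with a median of 0.79 and sums of 9865 to 11969 in vehicle and 9912 to 16301 in RvD6. All 5 mural genes tested were above 0, 2 of them at that level, with a median of 0.73 and sums of 534 to 792 and 706 to 2059. The 3 mast cell genes tested were all above 0 and at that level, with a median of 1.62. With all samples, none of these lists had a gene with an adjusted p below 0.05 by edgeR. In the fit without replicate 15 of the RvD6si group, edgeR called 8 of 12 neutrophil and precursor genes higher in RvD6. It also called 4 of 9 erythroid and 3 of 8 skeletal muscle genes higher, where 0.299% of all genes were called. The macrophage, endothelial, fibroblast, mural and mast cell lists had no call in that fit. With all samples, the 12 sensory neuron genes were all below 0, 6 of them at an unadjusted p below 0.05, with a median of -0.39. In whole ganglia, more cells of a type and more RNA per cell cannot be told apart, and the part of these cells in the values of Cxcl12, Cxcr2, Ccr2, Ccr1 and Il18rap was not tested.

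**Figure D3:**
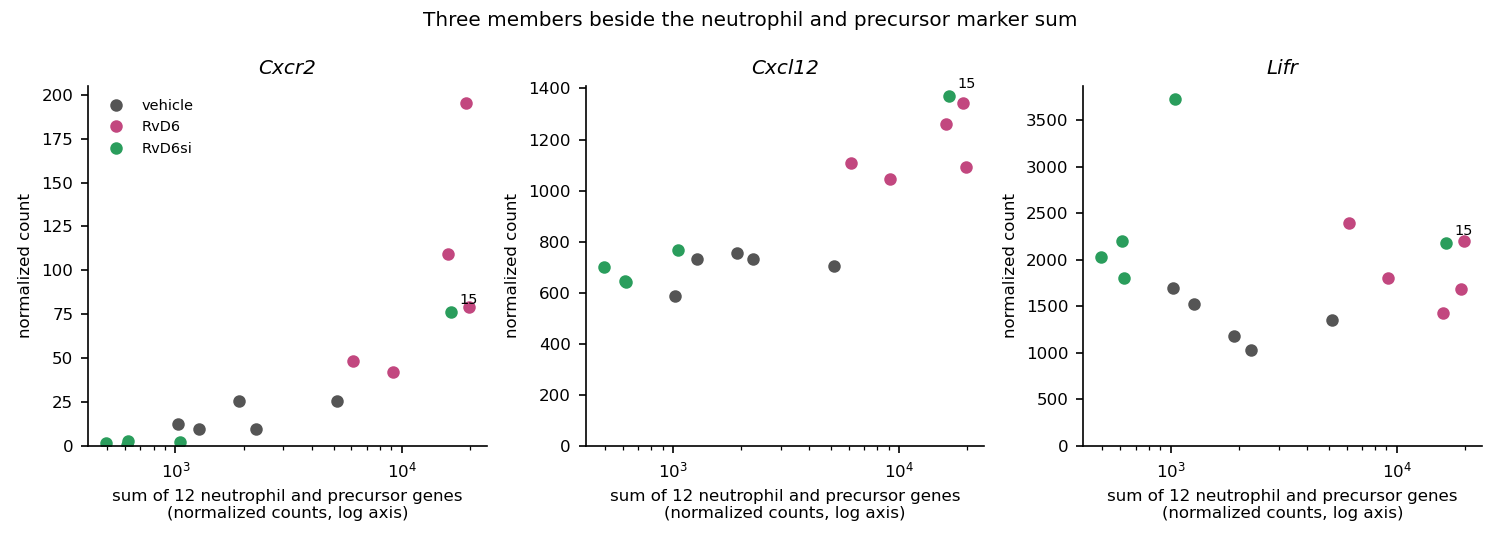
Normalized counts of Cxcr2, Cxcl12 and Lifr (linear axes) against the summed normalized counts of 12 neutrophil and precursor genes (log axis), one point per sample. For Cxcr2 and Cxcl12 the samples with sums of 6117 or more are the 5 RvD6 samples and replicate 15 of the RvD6si group, and they hold the highest values, whereas the highest Lifr value, 3730.2, belongs to a RvD6si sample with a sum of 1050.3.

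RvD6si ganglia were set against vehicle in the same way. Lifr was the gene that stood out: 1693, 1529, 1029, 1355 and 1184 normalized counts in the vehicle samples and 3730.2, 2196, 2032, 1800.2 and 2178 in the RvD6si samples. Every RvD6si sample lay above every vehicle sample, which held for 1 of 59 genes and for 4.88% of all genes in either direction, 2.48% with RvD6si higher. The log2 fold change was 0.81 (SE 0.20), with an adjusted p of 0.0633 by edgeR and 0.00404 by DESeq2. The edgeR value fell below the threshold without replicate 9 of the RvD6 group, a sample outside this comparison (adjusted p = 0.0472), and ranged up to 0.174 over the alternatives. Lifr spans 7090614 to 7197489 on chromosome 15 and overlaps no other annotated gene.

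Across the set, no gene of 59 had an adjusted edgeR p below 0.05, against 0.67% of all genes, and 3 reached p below 0.05 without adjustment, which was 5.08% of the set where 16% of all genes did so. DESeq2 called Lifr, where it called 5.55% of all genes, but it gave an adjusted p to only 25 of the 59 genes in this comparison. The other 34, among them Il17ra, Il1r1, Cxcr2, Ccr1 and Csf2rb, could not be called. Fold changes above 0 were found for 29 of 59 genes, against 51.2% of all genes, and the median log2 fold change was -0.004 in the set and 0.015 over all genes.

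The other 2 genes at an unadjusted p below 0.05 were Il17ra and Il1r1. Il17ra had 3.39, 32.7, 20.99, 7.24 and 55.3 normalized counts in the RvD6si samples, of which 2 lay within the vehicle range (log2 fold change 1.53, SE 0.72, adjusted p = 0.303 by edgeR). The highest, 55.3, was replicate 15, and the RvD6si mean of Il17ra was 23.9 with it and 16.1 without. Without that replicate Il17ra was not at an unadjusted p below 0.05 by edgeR. Il1r1, the signalling receptor of interleukin-1, had 62.7, 36.5, 87.5, 63.0 and 27.1 normalized counts in the vehicle samples and 39.5, 10.4, 5.48, 20.7 and 21.1 in the RvD6si samples. Its log2 fold change was -1.53 (SE 0.61, adjusted p = 0.219 by edgeR), and 1 RvD6si sample lay within the vehicle range. In the RvD6 group Il1r1 ran from 7.82 to 103 and overlapped both other groups.

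Among the rest, no gene of the common gamma chain group or of the chemokine ligands reached an unadjusted p below 0.05. All 6 genes of the common gamma chain group (Il4ra, Il4, Il13ra1, Il15ra, Il15 and Il2rg) had fold changes above 0, between 0.07 and 0.64, against 51.2% of all genes above 0. Replicate 15 of the RvD6si group was far the highest of its group for Il15 (45.5, the others 2.26 to 19.7) and Il2rg (43.9, the others 3.39 to 15.5). Vehicle samples reached 19.5 for Il15 and 16.7 for Il2rg, so the direction of both genes in RvD6si depends on that replicate. Of 16 chemokine ligand rows, 12 were below 0, with a median of -0.23, against 8086 of all 16567 genes below 0. These rows count the copies of Ccl19, Ccl21 and Ccl27 separately, and most of those copies were below 0. Il31ra, a receptor for the itch cytokine interleukin-31 that is known from sensory neurons, had 71.1, 69.5, 62.1, 80.7 and 94.3 normalized counts in RvD6si samples and 39.7, 57.8, 67.4, 50.2 and 27.1 in vehicle samples (log2 fold change 0.63, SE 0.42, adjusted p = 0.485 by edgeR). Only 1 vehicle sample lay above the lowest RvD6si sample. Ccl11, which attracts eosinophils, had means of 11.0 ± 6.47 and 24.6 ± 12.9 (log2 fold change 1.16, SE 0.68, adjusted p = 0.422 by edgeR). Ccl27a, whose gene overlaps Il11ra1 on the opposite strand, had means of 63.7 ± 10.5 and 43.1 ± 17.02 (log2 fold change -0.57, SE 0.31, adjusted p = 0.389 by edgeR).

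Replicate 15 decided the RvD6si values of Cxcl12, Cxcr2 and Ccl6, while other chemokine genes such as Ccl9 (mean 44.8 with it and 42.6 without) and Ackr1 (254 and 244) hardly depended on it. It was also the highest RvD6si sample, within the RvD6 range, for other genes. Among them were Il18rap (37.4, next 10.3), Il17ra (55.3, next 32.7), Ccr1 (32.5, next 20.1) and Il1f9 (19.5, next 4.79). Cxcl12 had 766, 645, 699 and 641 normalized counts in the other 4 RvD6si samples and 1370.3 in replicate 15, so that the mean was 824 ± 309 with it and 688 ± 58.1 (SD, n = 4) without. Cxcr2 had 2.26, 0.799, 1.83 and 3.10 in those 4 and 76.4 in replicate 15. Ccl6 likewise had 36.1, 37.5, 20.99 and 15.5 in the 4 and 149.5 in replicate 15. Without replicate 15, edgeR called 1 gene in RvD6si against vehicle, Cxcr2, at a log2 fold change of -3.02 (SE 0.63, adjusted p = 0.0446), and all 4 remaining RvD6si samples lay below all vehicle samples. This call was 1 of 59 genes, against 0.511% of all genes. Cxcr2 was the single gene of the set that lay below without overlap and Lifr the single one above, each against 3.59% of all genes, and 6 genes had an unadjusted p below 0.05, against 16.1%. In the same fit 9 of 12 neutrophil and precursor genes were lower at an unadjusted p below 0.05, 1 of them called, with a median of -1.66. With all samples 11 of 12 were above 0 with a median of 0.91. All 9 erythroid genes were below 0 without replicate 15, 6 of them at an unadjusted p below 0.05, with a median of -1.15. With all samples 7 of those 9 were above 0, with a median of 0.30. Lifr had a log2 fold change of 0.84 (SE 0.21, adjusted p = 0.0677 by edgeR) without replicate 15. With all samples, 8 of 8 skeletal muscle genes were below 0, 1 of them at an unadjusted p below 0.05. All 3 mast cell genes tested were above 0, 2 of them at that level. Of 7 Schwann cell genes 5 were above 0, with 2 higher and 1 lower at that level. Of 10 macrophage genes 4 were above 0, with 1 higher and 1 lower. The part of these cells in the values of Lifr and Cxcr2 was not tested.

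**Figure D4:**
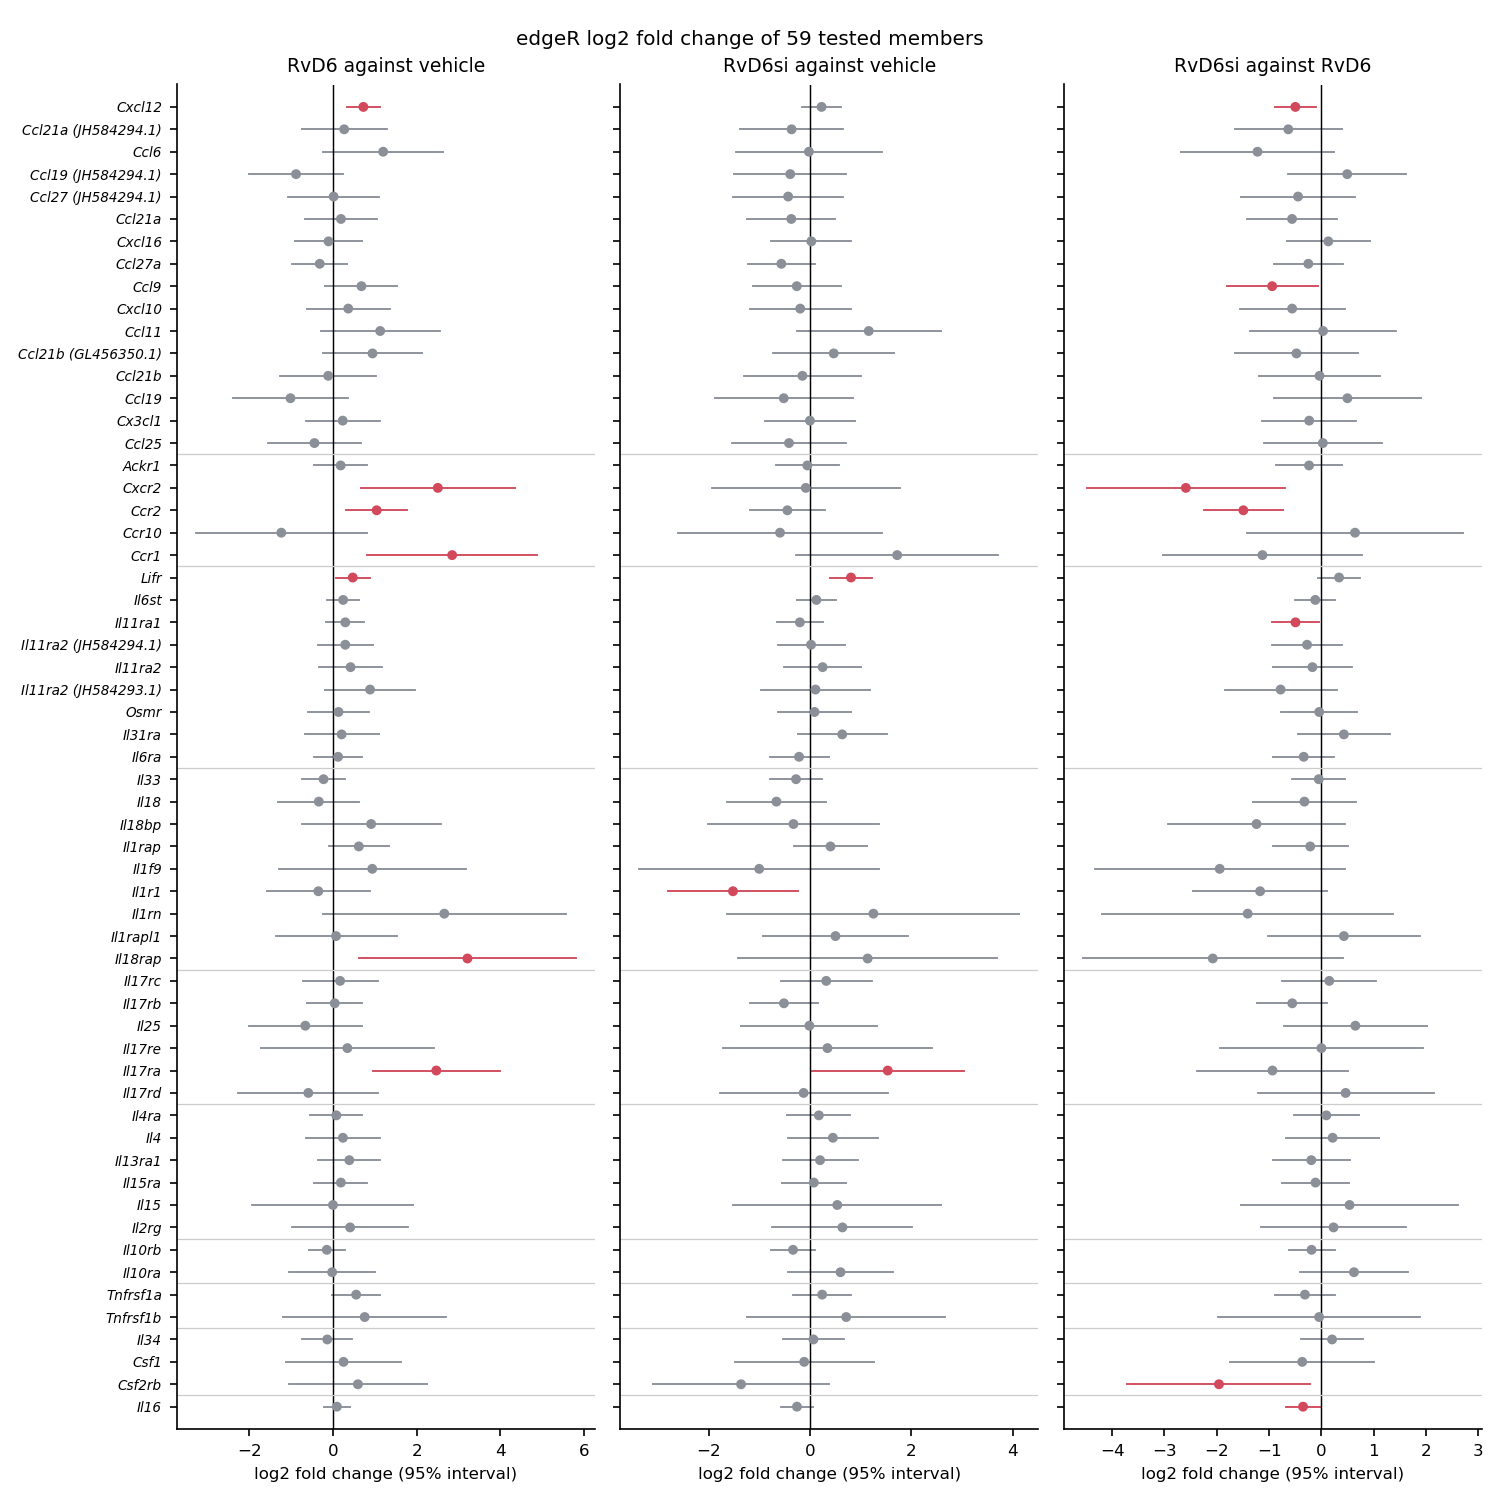
edgeR log2 fold change (points) with 95% interval (lines) of the 59 tested genes, ordered by role and level, for RvD6 against vehicle, RvD6si against vehicle and RvD6si against RvD6; red marks an unadjusted p below 0.05. The 7 red genes of the first panel all lie above 0 and the 7 of the third all below 0.

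The stereoisomers were compared with each other at the same time and frequency of application. The fold change of RvD6si over RvD6 was below 0 for 41 of 59 genes, the median log2 difference was -0.234 in the set and -0.004 over all genes, and 18 genes were above 0 against 49.5% of all genes. No gene of the set had an adjusted edgeR p below 0.05, against 0.235% of all genes. At an unadjusted p below 0.05 there were 7 genes (11.9% of the set against 8.82% of all genes, and 4.64% lower), all lower in RvD6si: Ccr2, Cxcr2, Cxcl12, Csf2rb, Il16, Il11ra1 and Ccl9. Since both comparisons with vehicle share the vehicle samples, and this one shares the treated samples with them, the 3 sets of values are not independent.

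Ccr2 (chromosome 9, 124101950 to 124113557) had the smallest edgeR p of the set between the isomers with all samples, though not without replicate 15. It had 26.0, 21.6, 34.7, 17.6 and 47.1 normalized counts in the RvD6si samples against 49.2, 114, 75.7, 91.7 and 83.6 in the RvD6 samples. The groups did not overlap, in 1 of 59 genes and 1.74% of all genes in either direction, 1.09% with RvD6si lower. The log2 difference was -1.49 (95% interval -2.24 to -0.74), with an adjusted p of 0.122 by edgeR and 0.00583 by DESeq2, which called no other gene of the set and 0.978% of all genes. Over the alternatives the adjusted p of Ccr2 ranged from 0.00583 to 0.306, and without replicate 15 it was 0.0372.

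For Cxcr2 the log2 difference was -2.59 (95% interval -4.49 to -0.70, adjusted p = 0.368 by edgeR), and for Cxcl12 it was -0.50 (95% interval -0.89 to -0.11, adjusted p = 0.406 by edgeR). Replicate 15 lay within or above the RvD6 range for both genes and the other 4 RvD6si samples below it. Without that replicate the differences were -5.52 (SE 0.66, adjusted p = 0.000448) and -0.76 (SE 0.13, adjusted p = 0.0108), and edgeR called 3 genes of the set in all, Ccr2 with these 2, against 0.916% of all genes. All 4 remaining samples lay below all RvD6 samples for 5 genes, Ccl6, Ccr2, Cxcl12, Cxcr2 and Il1f9, where 3.19% of all genes did, and 10 genes had an unadjusted p below 0.05, against 11.3% of all genes.

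The other 4 genes at an unadjusted p below 0.05 had larger p-values. Csf2rb, the signalling chain shared by the receptors for interleukin-3, interleukin-5 and granulocyte-macrophage colony stimulating factor, had 2.26, 22.4, 8.22, 0 and 17.9 normalized counts in RvD6si samples and 29.7, 39.7, 4.20, 45.9 and 79.5 in RvD6 samples (log2 difference -1.96, 95% interval -3.71 to -0.21). The groups overlapped through 1 low RvD6 sample. Il16, a chemoattractant of CD4+ cells, had means of 285 ± 27.3 and 366 ± 47.1 (log2 difference -0.35, 95% interval -0.67 to -0.03). Il11ra1, the interleukin-11 receptor chain, had means of 179 ± 38.9 and 254 ± 50.9 (log2 difference -0.50, 95% interval -0.95 to -0.04), and its gene overlaps 6 others. Ccl9, a chemokine of myeloid cells, had means of 44.8 ± 26.5 and 86.6 ± 34.7 (log2 difference -0.94, 95% interval -1.81 to -0.07). The adjusted edgeR p-values of these 4 genes were 0.496 for Csf2rb, 0.501 for Il16, 0.510 for Il11ra1 and 0.515 for Ccl9.

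For Lifr the isomers did not differ beyond their spread (log2 difference 0.34, 95% interval -0.07 to 0.75, adjusted p = 0.655 by edgeR), which leaves room for a difference of up to 0.75. The intervals were of similar or greater width for other genes known in sensory ganglia. They ran from -0.50 to 0.27 for Il6st, from -0.56 to 0.46 for Il33, from -0.39 to 0.80 for Il34, from -1.13 to 0.66 for Cx3cl1, the ligand of the macrophage receptor Cx3cr1, and from -1.75 to 1.01 for Csf1.

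In this comparison, too, marker genes of other cells are given beside the values. The 12 neutrophil and precursor genes were all lower in RvD6si than in RvD6, 6 of them at an unadjusted p below 0.05, with a median of -1.79, and -4.35 without replicate 15, where 11 of the 12 were called. Of 10 macrophage genes, 7 were below 0, 4 of them at an unadjusted p below 0.05, with a median of -0.52. All 8 skeletal muscle genes were lower, 7 of them called, with sums of 133 to 260.4 in RvD6si and 920.2 to 21543 in RvD6. Over all genes, 0.235% were called with all samples and 0.916% without replicate 15. At an unadjusted p below 0.05 with all samples, the share was 8.82% of all genes, and 4.64% were lower. All 9 erythroid genes were lower, 7 of them at an unadjusted p below 0.05 (median -1.50), and 8 were called without replicate 15. All 6 fibroblast genes were lower, 3 of them at that level (median -0.57), and 4 of 5 mural genes, of which 1, the smooth muscle actin Acta2, was called (adjusted p = 0.0392 by edgeR). Of 12 sensory neuron genes, 11 were higher, 2 of them at an unadjusted p below 0.05 (median 0.33). Sums of B lineage genes were 33.7 to 206 in vehicle, 157 to 528 in RvD6 and 35.9 to 392 in RvD6si, those of T and NK cell genes 29.6 to 97.4, 17.98 to 183 and 5.59 to 91.0, and those of mast cell genes 22.5 to 73.5, 83.6 to 304 and 56.9 to 156. Satellite glia sums ran from 4503 to 7256 and Schwann cell sums from 89954 to 159265 over all samples. Pituitary sums ran from 71.4 to 26963 in vehicle, 1627 to 16625 in RvD6 and 145 to 4770.1 in RvD6si. The part of these cells in the values of Ccr2, Cxcr2, Cxcl12 and Csf2rb was not tested.

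Genes of the signalling paths below these receptors were looked at as whole lists. Of 23 JAK and STAT path genes tested, out of 25, none had an adjusted edgeR p below 0.05 in any comparison. At an unadjusted p below 0.05, RvD6si against vehicle had 3 higher and 2 lower, RvD6 against vehicle 4 higher and RvD6si against RvD6 2 higher and 1 lower. Over all genes the shares at that level were 16%, 13.6% and 8.82%. Ptpn11, the phosphatase SHP2 that acts below gp130, had a mean of 791 ± 95.2 normalized counts in vehicle and 500.1 ± 29.1 in RvD6si (log2 fold change -0.67, SE 0.16, adjusted p = 0.0631 by edgeR). Its RvD6si samples, at 466.5 to 525, lay below all vehicle samples, at 656 to 875. Groups without overlap, in either direction, were found for 4.88% of all genes in this comparison. Stat3, the main factor below gp130, had means of 1044 ± 117 in RvD6 and 1533 ± 311 in RvD6si, with vehicle between them at 1240 ± 217. The log2 difference of RvD6si over RvD6 was 0.56 (SE 0.155, adjusted p = 0.215 by edgeR).

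Of 29 genes of the MyD88 and NF-kappaB path, none was called in any comparison. RvD6 against vehicle had 24 of 29 above 0, against 52.2% of all genes, with a median of 0.35. At an unadjusted p below 0.05 it had 2, Tnfaip3 and Rela, where 13.6% of all genes were. RvD6si against vehicle had 17 above 0 and 3 at that level, against 16% of all genes, among them Ikbkg, a subunit of the kinase that frees NF-kappaB (log2 fold change 0.82, SE 0.24, adjusted p = 0.101 by edgeR), and Tradd, an adaptor of Tnfrsf1a (log2 fold change 1.01, SE 0.35, adjusted p = 0.158 by edgeR).

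Relatives whose symbols fall outside the naming rule were also counted, 20 tested of 30 listed. RvD6 against vehicle had 14 above 0 and 5 at an unadjusted p below 0.05, all higher. Over all genes the shares at that level were 13.6% here, 16% in RvD6si against vehicle and 8.82% in RvD6si against RvD6. RvD6si against vehicle had 10 above 0, with 1 higher and 4 lower at that level, among them the interferon receptor chains Ifnar2 (log2 fold change -0.49) and Ifngr1. RvD6si against RvD6 had 5 above 0 and 2 lower at that level, and with all samples edgeR called none in any comparison. Without replicate 15 of the RvD6si group it called 2 higher in RvD6 against vehicle, against 0.299% of all genes. In that fit it also called 3 lower in RvD6si against RvD6, against 0.916% of all genes, and none in RvD6si against vehicle. Csf3r, the receptor for granulocyte colony stimulating factor, had 6.49, 7.12, 8.83, 13.8 and 6.58 normalized counts in the vehicle samples and 78.9, 107, 44.8, 50.8 and 99.7 in the RvD6 samples (log2 fold change 3.13, SE 0.76, adjusted p = 0.114 by edgeR). The RvD6si samples had 10.2, 12.0, 6.39 and 0, and 68.3 in replicate 15. Pf4, a platelet chemokine, had 69.8 to 96.4 in vehicle, 144 to 322 in RvD6, 28.2 to 63.9 in 4 RvD6si samples and 413 in replicate 15 (log2 fold change 1.40 in RvD6 against vehicle, SE 0.52, adjusted p = 0.260 by edgeR). The values of Csf3r and Pf4 therefore set the RvD6 samples and replicate 15 apart from the rest, as those of Cxcr2 and Cxcl12 did. Cx3cr1, the fractalkine receptor of ganglion macrophages, had means of 32.8 ± 16.7 in vehicle, 62.1 ± 31.9 in RvD6 and 64.1 ± 19.6 in RvD6si. In RvD6si against vehicle its log2 fold change was 0.96 (SE 0.41, adjusted p = 0.249 by edgeR). Of the 10 macrophage genes, which include Cx3cr1, 4 were above 0 and 6 below in that comparison, with a median of -0.24. Aif1, of smallest p among those 10, was lower (log2 fold change -1.34, SE 0.41, adjusted p = 0.111 by edgeR).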

How the data were processed

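RNA of 15 right trigeminal ganglia (5 per group) was sequenced by the authors with an adapted Smart-seq2 protocol from 1 ng of RNA and Nextera XT libraries, which do not mark strand. The authors aligned reads with Rsubread to GRCm38 with GENCODE M22 and deposited raw counts per gene from featureCounts; the file header names version 1.5.0-p1 and the submitters' notes Subread 1.6.5. The header sets neither strand nor multiple mapping, so reads marked as mapping to several places were left out. Reads of genes that overlap on opposite strands cannot be told apart. Of the 60 genes, 26 overlap another annotated gene. The deposited table also gives exonic length. No column held samples of another series.

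Symbols came from GENCODE M21, which named 99.8% of gene identifiers. Analyses used R 4.3.3, edgeR 4.0.16, DESeq2 1.42.0, Python 3.11.15 and pandas 2.3.3. The main test was the edgeR quasi-likelihood F test on all 15 samples and 3 groups in one fit, with TMM factors, the edgeR filter (16567 genes kept), Benjamini-Hochberg adjustment over all genes and a threshold of 0.05. Unadjusted p-values below 0.05 are given as a description. Normalized counts are counts over DESeq2 size factors, and TPM was computed from counts and length. Scripts were tested on simulated data. The first criterion for that test, on the share of changed genes found, was not met and was replaced after its result was seen by criteria on direction, false calls and bias, so an absence of calls does not show an absence of change. Alternatives were DESeq2, 2 groups alone, RLE factors, no filter, removal of a trend on gene length (lowess span 0.3) or of the 10 most counted genes, leaving out each sample and other count minimums. Summed copies, TMM-scaled CPM for overlap and overlap without replicate 15 of RvD6si were added after the data were seen.

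The members, the gene lists and the tests were chosen with earlier results of these data known. Genes named with values are any called, the 8 of smallest p per comparison, the 2 of highest TPM per role group and genes known in sensory ganglia; Ccl6, Il1f9, Ccr10, Ccl19 and the Ccl21 copies were named for their overlap or copies after their values were seen. From the pathway lists, genes among the 2 of smallest p in a comparison are named. Some items of these lists are not reported here. The samples of a group are taken as replicates from their labels. In the main fit, p-values set a difference between groups against the spread between samples, estimated over all 3 groups. Intervals are edgeR 95% intervals. Total counts per sample ranged from 5336073 to 9618944 in RvD6, 4125962 to 8762636 in RvD6si and 7421910 to 9903396 in vehicle.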

Additional observations from a re-analysis of the deposited data

Results flagged for a closer look

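Within each group of 5, a sample was marked when its gap to the nearest other sample took up more than 0.71 of the group's range (Dixon's criterion). This was looked at for 33 named genes in 3 groups, 99 groups in all, and chance marks about 1 group in 20, so some of the 10 marks are to be allowed for.

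Replicate 15 of the RvD6si group was marked for 4 genes. It had 1370.3 normalized counts of Cxcl12 where the next RvD6si sample had 766, 76.4 of Cxcr2 against 3.10, 37.4 of Il18rap against 10.3 and 102 of Il6ra against 67.5. The first 3 of these genes were also higher in RvD6 than in vehicle at an unadjusted edgeR p below 0.05, and the sample's neutrophil and precursor sum, 16547, lay in the range of the RvD6 group.

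Replicate 11 of the RvD6si group had 3730.2 normalized counts of Lifr against 2196 in the next sample, and without it Lifr remained above all vehicle samples in the other 4. Replicate 10 of the RvD6 group had 92.6 of Il17ra against 41.5 and 38.3 of Il4 against 25.2. Replicate 9 of the RvD6 group had 76.8 of Ccl11 against 18.2, and replicate 7 of that group 60.4 of Il18 against 39.2. Replicate 3 of the vehicle group had 436 of Il16 against 331.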

How the results depend on the processing

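No paired analysis was possible because the numbers run on across the groups and none is shared. With edgeR on all samples no gene of the set was called in any comparison. DESeq2 called 1 in RvD6si against vehicle (with an adjusted p for 25 of 59 genes), 2 in RvD6 against vehicle and 1 in RvD6si against RvD6, and edgeR on the 2 groups alone called 1 in RvD6 against vehicle (Cxcl12). Leaving out samples gave 0 to 1, 0 to 2 and 0 to 3 calls in these comparisons. The calls came without replicate 15 of RvD6si (1, 2 and 3) and, for Lifr in RvD6si against vehicle, without replicate 9 of RvD6. Counts at an unadjusted p below 0.05 ran from 2 to 6, 5 to 9 and 4 to 10. The 6 and the 10 came without replicate 15, and the 4 in RvD6si against RvD6 without replicate 11 or 14 of that group. Genes without overlap of groups, without replicate 15, were 2 in RvD6si against vehicle and 5 in RvD6si against RvD6. The other alternatives kept each count within 1.5 times, which for counts of 0 means 0. A minimum mean of 5 or 20 counts would give 83 or 43 genes in place of 60. Of 526 recomputed fold changes of 24 genes and comparisons, 515 kept their direction and side of the threshold, 11 passed it newly and none reversed. The cause of these shifts was not tested. Depth limits the ligands: Ccl2, Il1b, Lif, Osm, Tnf and Il6 stayed below the minimum count, and nothing is said of their response.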
